A study of Mus musculus with 3 samples.

Results

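Skin papillomas of mice that overexpressed galectin-7 were set against papillomas of mice that lacked it. Galectin-7, the product of Lgals7, is a small lectin of stratified epithelia. It binds beta-galactoside sugars on glycoproteins of the cell surface and matrix, and has been studied in keratinocyte adhesion, wound closure, apoptosis and tumour immunity. Lgals7-/- mice lack it. Tg46 is a transgenic line in which the keratin 14 promoter, active in the basal layer of stratified epithelia, drives galectin-7 constitutively. All animals were C57BL/6 mice whose skin tumours were raised with the carcinogen DMBA followed by the tumour promoter TPA, a protocol that yields benign epidermal tumours on a stroma of fibroblasts, vessels and immune cells. Each library was made from total RNA of 3 pooled tumours, and there was 1 library per genotype. A wild-type library from mice with endogenous galectin-7 was made in the same way and is given beside the pair. Sex and age are not given in the labels used here.

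The comparison took the 12224 of 24028 gene identifiers that had at least 10 read counts in the Lgals7-/- library, the Tg46 library or both. Of these, 7745 reached 10 counts in both libraries, 2296 in Lgals7-/- alone and 2183 in Tg46 alone. The libraries held 312600 counts (Lgals7-/-) and 354499 counts (Tg46), and wild-type 172011. Depth was therefore thin, and 54.7% of the tested genes had 10 to 19 counts in the larger library. At the threshold, 967 genes had a larger count of 10 and 973 had a larger count of 9, with a median log2 ratio of -0.03 in both sets. Levels are in CPM, counts scaled to a common library size with TMM factors. The floor, the level of 3 counts, was 9.11 CPM in Lgals7-/- and 8.95 CPM in Tg46, and a gene listed at 0 may reach that level. A ratio is the Tg46 level over the Lgals7-/- level with 0.5 counts added to each, and the range in brackets is its exact 95% counting interval. Higher and lower calls needed a ratio of at least 2-fold and an interval that left out 1. With 1 library per genotype there is no replicate check and no test of genotype, and intervals and floors cover counting error only.

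By that rule 1079 genes (8.83%) were called higher in Tg46, 987 (8.07%) lower and 10158 (83.1%) neither. An interval lying wholly beyond 2-fold was reached by 147 genes (1.2%) upward and 86 (0.704%) downward. The median log2 ratio was -0.03, with quartiles of -0.57 and 0.58. The direction split depends on the scaling: with total counts alone every log2 ratio moves by -0.16, and 749 genes were called higher and 1346 lower. Lgals7 had 2 counts in Lgals7-/-, 4 in Tg46 and 0 in wild-type, a Tg46 to Lgals7-/- ratio of 1.77 (0.282 to 21.7), so this depth does not check the genotype labels. Keratinocyte markers were present in both libraries, with 81 and 95 counts at Krt14 and 132 and 156 at Krt1 in Lgals7-/- and Tg46. Per kilobase of exon, Krt14 stood at 140 and 161 CPM in these libraries, while the 1477 chemosensory receptor genes, known for their roles in nose and tongue, stood together at 2.53 and 2.36. Keratinocyte markers differed widely on this scale, with Krt10 at 138 and 157 but Trp63 at 6.52 and 7.47. A list of 20 genes used by every cell stood together at 7.88 and 9.05, much nearer to the receptors than Krt14.

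**Figure D1:**
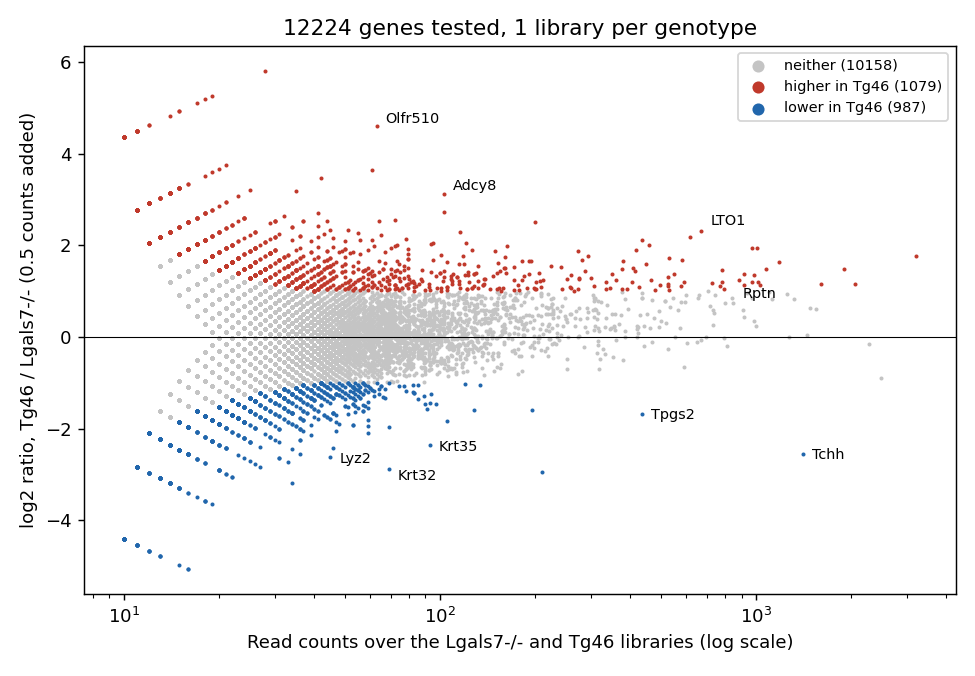
Each point is 1 of the 12224 tested genes, with the read counts summed over the Lgals7-/- and Tg46 libraries on a log axis and the log2 ratio of Tg46 to Lgals7-/- on the other. Red points are the 1079 genes called higher and blue points the 987 called lower; of the 142 genes with at least 320 counts 51 are red, and Tchh and Tpgs2 are blue.

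Hair follicle structural genes were lower in Tg46 than in Lgals7-/-. The hair follicle builds an inner root sheath, hardened by trichohyalin and a set of specialised keratins, around a hair shaft made of hair keratins. Trichohyalin (Tchh, chromosome 3, 93442330 to 93449077, plus strand, mm10) had 1202 counts in Lgals7-/-, 209 in Tg46 and 160 in wild-type, which are 3652, 624 and 926 CPM. Lgals7-/- was thus the high library, and Tg46 lay below wild-type. The Tg46 level was 5.84-fold lower than the Lgals7-/- level (5.05 to 6.81), and this gene had the most counts of any called lower.

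The same order was seen at the hair shaft keratins. Krt35 stood at 237 CPM in Lgals7-/-, 44.8 in Tg46 and 162 in wild-type, and was 5.16-fold lower in Tg46 than in Lgals7-/- (3.02 to 9.91). Krt36 stood at 140, 38.8 and 63.7 CPM in the same order, 3.51-fold lower (1.91 to 7.27), and Krt33a at 48.6, 11.9 and 17.4 CPM, 3.73-fold lower (1.31 to 16.7). At each of these 3 genes Lgals7-/- was highest and Tg46 lowest. Krt32, whose exons overlap those of Gm11571 on the opposite strand, had 61 counts in Lgals7-/- and 8 in Tg46 and was 7.37-fold lower (3.70 to 18.8). Of the 6 hair shaft genes that passed the filter, 4 were called lower and 0 higher, where 8.07% and 8.83% of all tested genes were. Krt32 and Krt33a were below 10 counts in Tg46 and passed through Lgals7-/-, where they were high, which favours a call. The other 11 of the 17 in the table were below 10 counts in both libraries.

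Krt25, an inner root sheath keratin, had 23 counts in Lgals7-/- and 5 in Tg46, 4.35-fold lower (1.74 to 15.8). Its companions Krt26 (24 and 12 counts), Krt71 (18 and 9), Krt72 (13 and 6) and Krt27 (17 and 15) were not called. Gata3, a regulator of the sheath that other skin and immune cells also use, had 25 counts in Lgals7-/- and 27 in Tg46. Summed over all 12 inner root sheath genes, with no filter, Lgals7-/- had 1364 counts, Tg46 313 and wild-type 208, a ratio of 0.23 (0.20 to 0.26). Without Tchh the ratio was 0.63 (0.49 to 0.81), so Tchh carries most of the sum. The 17 hair shaft genes summed to 282 and 104 counts in Lgals7-/- and Tg46, a ratio of 0.36 (0.29 to 0.46), and of 0.43 (0.33 to 0.55) without Krt35. The same ratio over all counts of the table was 1.11, and over all genes with no opposite-strand exon 0.99. In pooled bulk tissue fewer follicle cells and less RNA per follicle cell cannot be told apart.

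Among regulators of the follicle, Tcf7l1 (20 and 7 counts in Lgals7-/- and Tg46, overlapping Gm15401) was called lower. It is a repressor of the Wnt response in follicle stem cells. Lgr6 (16 and 4), a stem cell receptor, and Dlx3 (15 and 4), a factor of hair differentiation, were also called lower. Ovol2 (0 and 10) was at least 3.27-fold higher, with an opposite-strand overlap with 1700108N11Rik. The most abundant regulators, Cux1 (69 and 53), Tcf7l2 (48 and 39) and Hr (34 and 33), were not called, and the 28 regulators summed to a ratio of 0.99 (0.86 to 1.14).

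The promoters of the called hair genes are shown because the hair result rests on these genes, which were chosen as called lower. Of the 6, 4 matched an entry of the RefSeq promoter table (GRCm38.p6). The 250 bases before each start are printed 5′ to 3′ on the gene's strand, from chr3:93442080-93442329 (plus strand) for Tchh and from chr11:99322952-99323201, chr11:100088270-100088519 and chr11:100105627-100105876 (minus strand) for Krt25, Krt32 and Krt36. Capitals mark TATAAA, the TATA box letters, and CTTTGA or CTTTGT, the core letters of LEF and TCF factors, on either strand.
Tchh: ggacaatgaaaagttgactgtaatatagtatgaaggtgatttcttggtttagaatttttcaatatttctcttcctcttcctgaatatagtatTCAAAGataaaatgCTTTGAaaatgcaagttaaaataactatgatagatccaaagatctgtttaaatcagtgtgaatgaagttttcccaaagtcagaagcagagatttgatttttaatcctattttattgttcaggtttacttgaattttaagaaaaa
Krt25: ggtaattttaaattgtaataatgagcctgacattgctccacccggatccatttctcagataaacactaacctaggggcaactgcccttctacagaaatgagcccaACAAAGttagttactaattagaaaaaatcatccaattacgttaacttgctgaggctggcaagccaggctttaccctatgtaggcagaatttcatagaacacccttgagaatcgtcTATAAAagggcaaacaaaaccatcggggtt
Krt32: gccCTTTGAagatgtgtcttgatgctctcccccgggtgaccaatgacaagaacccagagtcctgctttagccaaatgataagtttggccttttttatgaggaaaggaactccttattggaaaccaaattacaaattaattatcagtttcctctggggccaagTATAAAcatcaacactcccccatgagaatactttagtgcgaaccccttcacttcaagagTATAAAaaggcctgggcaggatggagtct
Krt36: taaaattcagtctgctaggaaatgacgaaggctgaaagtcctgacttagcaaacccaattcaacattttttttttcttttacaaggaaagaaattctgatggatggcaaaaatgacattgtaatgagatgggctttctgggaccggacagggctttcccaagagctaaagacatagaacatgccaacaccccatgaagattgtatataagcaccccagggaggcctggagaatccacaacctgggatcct
Krt25 and Krt32 hold TATAAA, Tchh, Krt25 and Krt32 hold CTTTGA or CTTTGT, and none of the 4 holds TGANTCA, the AP-1 letters. Searched on both strands from 250 bases before to 50 after the start, TATAAA was found in 6.72% of the 833 promoters of genes called higher, 10.99% of the 764 of genes called lower and 8.13% of the 9571 of all genes tested. CTTTGA or CTTTGT was found in 25.8%, 26.2% and 25.1%, and TGANTCA in 6.24%, 7.59% and 6.02%. These are matches of letters, not binding sites.

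Genes of the upper epidermis moved in both directions, with a higher sum in Tg46. The cornified envelope is the protein shell of dead surface keratinocytes, cross-linked from precursors that many neighbouring genes of the epidermal differentiation complex encode. Its 49 listed genes summed to 862 counts in Lgals7-/-, 1195 in Tg46 and 254 in wild-type, a Tg46 to Lgals7-/- ratio of 1.36 (1.25 to 1.49). Repetin (Rptn) had the most counts, at 954 CPM in Lgals7-/-, 1590.3 in Tg46 and 365 in wild-type. Its ratio of 1.67 (1.45 to 1.92) left out 1 but stayed under 2-fold, so it was not called, and without it the list stood at 1.19 (1.06 to 1.33). None of the 49 genes has an opposite-strand exon.

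Of the 18 envelope genes that passed the filter, 3 were called higher, 3 lower and 12 neither. Among all tested genes 8.83% were called higher and 8.07% lower. Csta1, a stefin-type protease inhibitor, stood at 188 CPM in Lgals7-/-, 448 in Tg46 and 46.3 in wild-type, 2.37-fold higher in Tg46 than in Lgals7-/- (1.76 to 3.25). The small proline-rich genes Sprr2k (9 counts in Lgals7-/- and 55 in Tg46) and Sprr2i (8 and 26) were 5.74-fold (2.94 to 13.8) and 3.06-fold (1.40 to 8.16) higher. The Sprr2 genes are near-identical copies, so how reads were divided among them is uncertain. In the other direction, cornulin (Crnn) fell from 32 counts to 7, 4.41-fold lower (2.02 to 12.5), and Tchhl1, a relative of trichohyalin, from 43 to 15, 2.86-fold lower (1.59 to 5.66). Lce3c, a late envelope gene, had 10 counts in Lgals7-/- and 0 in Tg46, at least 3.39-fold lower. Involucrin (Ivl), with 83 and 63 counts, was not called. Sprr3, a further small proline-rich gene below the filter, had 8 counts in Lgals7-/- and 0 in Tg46.

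Suprabasal keratinocyte genes summed to a ratio of 1.21 (1.09 to 1.33). Of 18 tested, 4 were called higher and 1 lower, where 8.83% and 8.07% of all tested genes were. Without the 4 members on chromosome 7 the ratio was 1.14 (1.001 to 1.30). Klf4, a factor that drives terminal differentiation of the epidermis, had 7 counts in Lgals7-/-, 32 in Tg46 and 3 in wild-type, 4.26-fold higher in Tg46 (1.95 to 12.1). Grhl3, a barrier factor (8 and 20 counts), Krtdap (2 and 10) and Krt80 (1 and 13, overlapping Gm35853) were also called higher. Like Klf4, they were below 10 counts in Lgals7-/- and passed the filter through Tg46. Dsg1a, a desmosomal cadherin of the upper layers, had 31 counts in Lgals7-/- and 5 in Tg46, 5.83-fold lower (2.43 to 20.8). The main differentiation keratins were close, with ratios of 1.16 at Krt1 (0.915 to 1.47) and 1.13 at Krt10 (0.856 to 1.51). The most abundant member, dermokine (Dmkn), stood at 1.24 (1.04 to 1.48) from 230 and 290 counts.

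Basal keratinocyte genes as a group were level, at a ratio of 0.98 (0.88 to 1.09). Krt14, the keratin whose promoter drives the transgene, stood at 1.15 (0.847 to 1.57), and Trp63, the basal lineage factor, at 1.14 (0.581 to 2.28). Cd44, the hyaluronan receptor, fell from 38 counts in Lgals7-/- to 15 in Tg46, 2.53-fold lower (1.39 to 5.05). Cd151, a tetraspanin of hemidesmosomes with an overlap with Gm10575, went from 3 to 14, 4.07-fold higher (1.28 to 24.9). Dst (101 and 104 counts) and Plec (72 and 67), which link keratin filaments to hemidesmosomes, were not called.

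Cell junction genes were called in both directions. Pkp2, a desmosome plaque gene (34 counts in Lgals7-/- and 10 in Tg46), and Ocln, occludin (17 and 3), were lower in Tg46. Cgn, cingulin of tight junctions (13 and 36), Cldn1, a claudin of the skin barrier (4 and 14), and Perp, a desmosomal gene (2 and 15), were higher. Desmosome and adherens junction genes summed to 1.17 (1.02 to 1.33), a value that turned to 0.95 (0.78 to 1.16) over members with no opposite-strand exon. Among barrier lipid genes 3 of 22 were called higher and 0 lower, against 8.83% and 8.07% of all genes. They were Elovl4, which makes very long fatty acids (12 and 26 counts), Abhd5, a lipase cofactor (32 and 81, overlapping A730085K08Rik), and Pnpla1, an acylceramide enzyme (9 and 21, overlapping Pnpla1os). The list summed to 1.22 (1.07 to 1.40), and to 1.04 (0.86 to 1.25) with no opposite-strand exon. Klk10, a kallikrein protease of the surface layers, was 2.05-fold higher (1.31 to 3.33), and Spink5, an inhibitor of that family, stood at 1.56 (1.18 to 2.07).

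Keratins and alarmins of injured or hyperproliferative skin were higher in sum, at 1.60 (1.33 to 1.94). Krt6a went from 35 to 95 counts, 2.64-fold higher (1.79 to 4.05), and Krt6b, from 26 to 51, stood at 1.91 (1.18 to 3.22) and was not called. Their partner Krt16 had 50 counts in both libraries. Krt6a and Krt6b are close copies and both have opposite-strand exons, and over the 19 members without such an exon the sum stood at 1.18 (0.91 to 1.53). Defb14, a beta-defensin, had 0 counts in Lgals7-/- and 11 in Tg46, at least 3.60-fold higher.

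**Figure D2:**
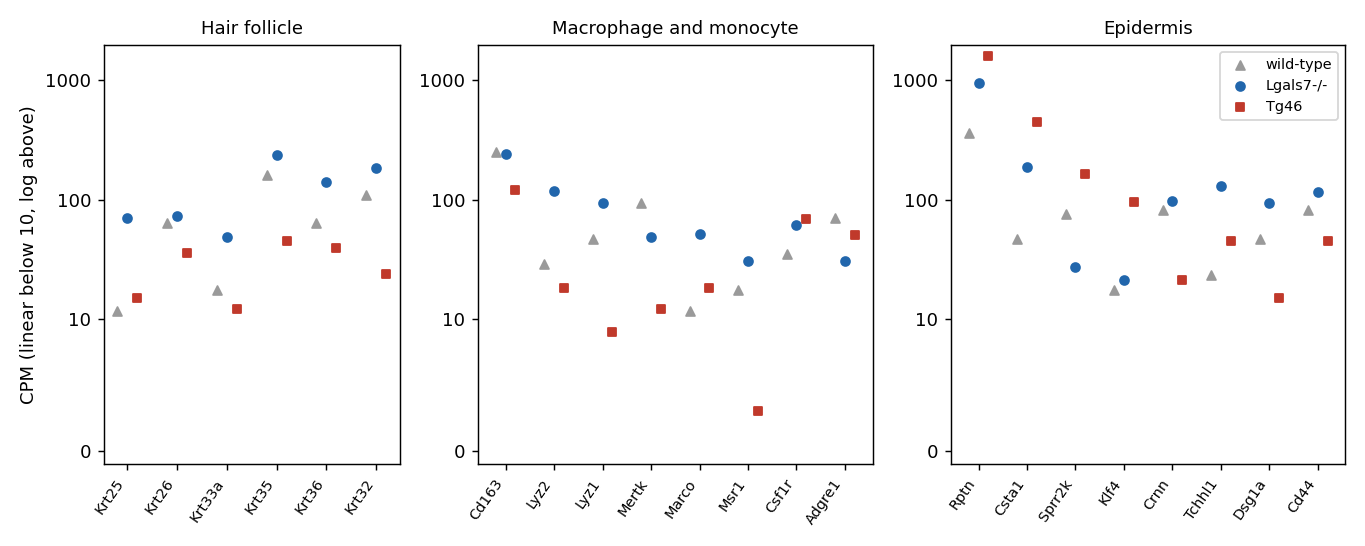
Levels in CPM of named genes of the hair follicle, macrophages and monocytes, and epidermis in the wild-type (triangles), Lgals7-/- (circles) and Tg46 (squares) libraries; the axis is linear below 10 and logarithmic above, and each point is 1 library with no error bar. All 6 hair keratins are highest in Lgals7-/-, Csf1r and Adgre1 are not lower in Tg46 than in Lgals7-/- while the 6 other macrophage genes are, and the epidermal genes go both ways.

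Among immune genes, several macrophage and monocyte genes were lower in Tg46. Of the 16 that passed the filter, 6 were called lower and 0 higher, where 8.07% and 8.83% of all tested genes were. Cd163, a scavenger receptor of tissue macrophages, had 80 counts in Lgals7-/- and 40 in Tg46, 2.02-fold lower (1.38 to 3.06). The scavenger receptors Marco (17 and 6) and Msr1 (10 and 1) and Mertk, a receptor for dying cells (16 and 4), were also called lower. Lyz2, the myeloid lysozyme, went from 39 to 6, 6.19-fold lower (2.78 to 19.1), and Lyz1 from 31 to 3, 9.16-fold lower (3.28 to 53.8). Lyz1 and Lyz2 are near-identical, so their reads may not be separable. Of the defining markers, Csf1r had 20 and 23 counts, Adgre1 10 and 17 and Cd68 12 and 9, and none was called. With so few counts their intervals are wide. Csf1r stood at 1.13 (0.593 to 2.17) and Adgre1 at 1.64 (0.722 to 4.08), and both intervals left out a 2-fold fall. The Cd68 interval did not, as its ratio of 0.75 ran from 0.27 to 1.90. Over all 29 genes the sum went from 407 to 280 counts, a ratio of 0.68 (0.58 to 0.79). It was 0.72 (0.61 to 0.85) without Cd163, 0.79 (0.67 to 0.93) without Lyz1 and Lyz2, and 0.65 (0.55 to 0.76) over members with no opposite-strand exon.

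Neutrophil genes summed to 0.71 (0.55 to 0.92), with Ngp (18 and 5 counts), a granule protein gene, and Mmp8, the neutrophil collagenase (17 and 6), called lower. Of the defining markers, Csf3r had 16 and 12 counts and S100a8 4 and 0. NK and cytotoxic cell genes summed to 0.77 (0.59 to 0.99). Klrb1c, the NK1.1 antigen, had 19 counts in Lgals7-/- and 2 in both Tg46 and wild-type, 7.94-fold lower in Tg46 than in Lgals7-/- (2.33 to 85.6), and Klra7, of a family of close copies, had 12 and 3. Ncr1, the NK defining receptor, had 6 and 3 counts. The other way, Cd244a, a co-receptor of NK cells, was 2.80-fold higher (1.12 to 9.07). Genes for NKG2D ligands and other NK receptor ligands stood at 1.03 (0.77 to 1.39), and none of the 3 tested was called.

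Chemokine genes were lower in sum and chemokine receptor genes higher. The 34 chemokines summed to 222 counts in Lgals7-/- and 150 in Tg46, a ratio of 0.66 (0.54 to 0.82). Cxcl12, a stromal chemokine, fell from 28 counts to 11, 2.52-fold lower (1.25 to 5.77), and Ccl3, an inflammatory chemokine, from 12 to 1. Cxcl16 (20 and 10) and Ccl22 (15 and 7) were not called, and 9 of the 34 passed the filter. The 22 receptors summed to 253 and 350 counts, a ratio of 1.36 (1.15 to 1.60), and of 1.46 (1.18 to 1.82) over those with no opposite-strand exon. Ccr7, the lymph node homing receptor (2 and 11), and Ccr6 (0 and 10, at least 3.27-fold) were called higher. Cxcr6, with the most counts, stood at 1.67 (1.15 to 2.48).

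T cell genes summed to 1.29 (1.11 to 1.49), a value that rests on Cd247, a T cell receptor chain whose exons overlap those of Pou2f1. Without it the ratio was 1.02 (0.85 to 1.22), and with no opposite-strand exon 0.82 (0.66 to 1.01). Foxp3, the regulatory T cell factor, was 2.22-fold higher (1.42 to 3.64) from 28 and 64 counts, and its exons overlap those of Ccdc22. Lck, a T cell kinase (16 and 6), and Pdcd1, the PD-1 gene (10 and 1), were called lower. Cd3d, Cd3e and Cd3g, the defining markers, had 7, 8 and 0 counts in Lgals7-/- and 5, 8 and 3 in Tg46.

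Complement genes summed to 1.33 (1.09 to 1.62), with 3 of 11 called higher and 0 lower, against 8.83% and 8.07% of all genes. These were Cfb (17 and 36 counts) and Cfp (3 and 12) of the alternative pathway and the C5a receptor C5ar1 (2 and 12). Cfp and C5ar1 passed the filter through Tg46 alone, where they were high. Interferon genes were close in sum, at 0.90 (0.77 to 1.05) for the type I response and 1.09 (0.92 to 1.30) for interferon-gamma. Single members moved: Mx2 (20 and 2) and Ifi204 (16 and 1) were called lower in the first list, and in the second Gbp7 (12 and 28) and Ifngr2 (5 and 17) higher and Gbp5 (20 and 4) lower. MHC genes stood at 1.13 (0.94 to 1.36), with H2-Ab1, a class II chain (3 and 13), called higher. Genes of Toll-like receptor, NF-kappaB and inflammasome signalling stood at 0.97 (0.82 to 1.15), at 0.80 (0.67 to 0.97) with no opposite-strand exon and at 0.81 (0.68 to 0.98) without chromosome 7, with 3 called higher, among them the NF-kappaB subunit Relb (14 and 32), and 2 lower, among them the receptor kinase Irak1 (15 and 3). Dendritic and Langerhans cell genes stood at 1.11 (0.90 to 1.36), and Cd207, langerin of Langerhans cells, was called lower (11 and 2).

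Most growth pathways had sums whose intervals held 1, and the cell cycle and TGF-beta sums, which did not, came closer to 1 over genes with no opposite-strand exon. G2 phase and mitosis genes summed to 547 counts in Lgals7-/- and 820 in Tg46, a ratio of 1.47 (1.32 to 1.64), but to 0.98 (0.83 to 1.15) over the 20 members with no such exon. Without Ccna2 it was 1.16 (1.02 to 1.32), and the median ratio of its tested members was 1.40. Ccna2, cyclin A2, went from 110 to 304 counts, 2.71-fold higher (2.18 to 3.41), and Exosc9, which overlaps it, from 89 to 289, so reads of the pair may not be separable. Birc5, the apoptosis inhibitor survivin (5 and 23), and Bub1b (4 and 15) were higher and Bub1 (30 and 10), both spindle checkpoint genes, lower, none of the 3 with an overlap. Mki67, the proliferation marker, stood at 1.42 (0.975 to 2.09). In the G1 and S phase list Ccne2, cyclin E2 (86 and 214), overlaps Ints8, and the sum of 1.16 (1.03 to 1.29) became 0.93 (0.82 to 1.06) without it. Ccnd1, cyclin D1, was not called at 35 and 47 counts.

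EGFR ligands and receptors (1.11, 0.93 to 1.33), the Ras, MAPK, PKC and AP-1 list (1.06, 0.95 to 1.19), Wnt (0.95, 0.83 to 1.07), Notch (1.02, 0.90 to 1.15) and Hedgehog (1.08, 0.90 to 1.30) had sums whose intervals held 1. Areg, the EGFR ligand amphiregulin, went from 5 counts to 18, 3.30-fold higher (1.27 to 12.2), and the receptor gene Erbb4 from 24 to 7, 3.33-fold lower (1.46 to 9.59). Jun, an AP-1 subunit (12 and 1, overlapping Junos), and the Ras exchange factors Sos1 (33 and 12) and Sos2 (25 and 6) were called lower, and the protein kinase C genes Prkcb (6 and 24) and Prkch (11 and 24) higher. Hras, the usual target of DMBA mutation in this model, had 12 and 10 counts. Of the Hedgehog genes, Sufu (24 and 55), an inhibitor, and Gli1 (11 and 24, overlapping Gm47200), a target and effector, were higher, while the receptor and target Ptch1 (31 and 15) was lower. None of the 19 Notch genes tested and none of the 14 p53 target, cell cycle inhibitor and apoptosis genes tested was called. Among all tested genes 8.83% were called higher and 8.07% lower.

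TGF-beta and BMP genes summed to 1.36 (1.20 to 1.54), and to 1.07 (0.90 to 1.27) with no opposite-strand exon. Acvr2a, an activin receptor gene overlapping Orc4, went from 105 to 255 counts. Tgfb1 (4 and 14) and the receptor gene Acvr1 (4 and 15), with no overlap, were called higher, and Tgfb3 (25 and 11, overlapping Gm48008) lower. The same held for glands and pigment cells. Sebaceous gland genes stood at 1.86 (1.66 to 2.09) and at 1.01 (0.83 to 1.22) without Far2, which overlaps Ergic2, and melanocyte genes at 1.87 (1.66 to 2.10) and at 0.90 (0.70 to 1.17) with no opposite-strand exon. Pmel, a melanosome gene overlapping Dgka, carried the pigment sum with 257 and 624 counts, and Mc1r, the melanocortin receptor gene overlapping Gm38092 (6 and 19), was also called higher. Of members without an overlap, Oca2, a melanosome transporter gene (5 and 16), was called higher and the pigment genes Tyrp1 (17 and 6) and Slc45a2 (18 and 7) lower.

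Most stromal lists had sums whose intervals held 1, but fibroblast and matrix glycoprotein genes were higher in sum in Tg46. Of 21 collagen genes tested 0 were called, where 8.83% of all tested genes were called higher and 8.07% lower. The collagen sum stood at 1.08 (0.97 to 1.20). Col1a1 had 61 counts in both libraries, Col7a1 68 in both and Col6a3 48 in both. Fibroblast and matrix glycoprotein genes summed to 1.28 (1.11 to 1.47), and to 1.25 (1.03 to 1.51) with no opposite-strand exon. Spon2, a secreted matrix protein gene, was the only one of 18 called (5 and 21, higher). Metalloproteinase genes stood at 0.98 (0.84 to 1.14), endothelial genes at 0.93 (0.78 to 1.12) and smooth muscle and pericyte genes at 0.83 (0.68 to 1.01). Skeletal muscle genes stood at 0.93 (0.84 to 1.04), but at 0.87 (0.77 to 0.98) without the 7 members on chromosome 7. Of the skeletal muscle genes, Atp2a1 (22 and 57, overlapping Rabep2) was called higher and Myh2 (34 and 17, overlapping 9430073C21Rik) and Tnnt1 (16 and 2) lower. Cd36, a fatty acid receptor shared by adipocytes, macrophages and vessels, was lower (43 and 14).

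Glycolysis and hypoxia genes summed to 1.33 (1.18 to 1.49), and to 0.98 (0.82 to 1.16) with no opposite-strand exon. Hif1a, the oxygen-regulated factor (41 and 119, overlapping Gm15283), and its targets Car9 (11 and 33, overlapping Gm12454) and Vegfa (12 and 30, no overlap) were called higher. Slc16a1, a lactate transporter (83 and 53), was not called. Chaperone genes stood at 1.12 (1.003 to 1.25), NRF2 and glutathione genes at 0.98 (0.82 to 1.18) and proteasome genes at 1.08 (0.96 to 1.22). Of the members of these 3 lists 0 were called higher and 2 lower, where 8.83% and 8.07% of all tested genes were. The 2 were Ern1 (26 and 12), a sensor of the unfolded protein response, and Psmd11 (23 and 3), a proteasome lid subunit. Cholesterol synthesis genes stood at 1.04 (0.90 to 1.19), with Sqle (16 and 45) higher and Hmgcs1 (22 and 8, overlapping Gm48342) and Ebp (13 and 4) lower.

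The galectin family itself was thinly covered. The 10 galectin and related genes in the table summed to 76 counts in Lgals7-/- and 105 in Tg46, a ratio of 1.36 (1.001 to 1.85), and 5 of them were tested. Lgals4, which lies on chromosome 7 as Lgals7 does, was called higher (10 and 23 counts, 2.20-fold, 1.03 to 5.32). Lgals8 had 17 and 21 counts, Lgals2 11 and 13, Lgalsl 15 and 13 and Lgals3bp, a galectin-binding glycoprotein gene, 7 and 14. Lgals3 (4 and 8), Lgals9 (1 and 7), Lgals12 (7 and 1) and Lgals1 (2 and 1) were below the filter. Enzymes that build or cap galectin ligands summed to 1.22 (1.06 to 1.40), with 3 of 17 called higher and 0 lower, against 8.83% and 8.07% of all genes. These were Gcnt2 (9 and 29, overlapping A730081D07Rik), which branches poly-lactosamine, Mgat4b (6 and 17), which branches N-glycans, and the sialyltransferase gene St3gal6 (5 and 16, overlapping Dcbld2). With no opposite-strand exon the list stood at 1.05 (0.86 to 1.29), and without its chromosome 7 members at 1.14 (0.98 to 1.33).

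**Figure D3:**
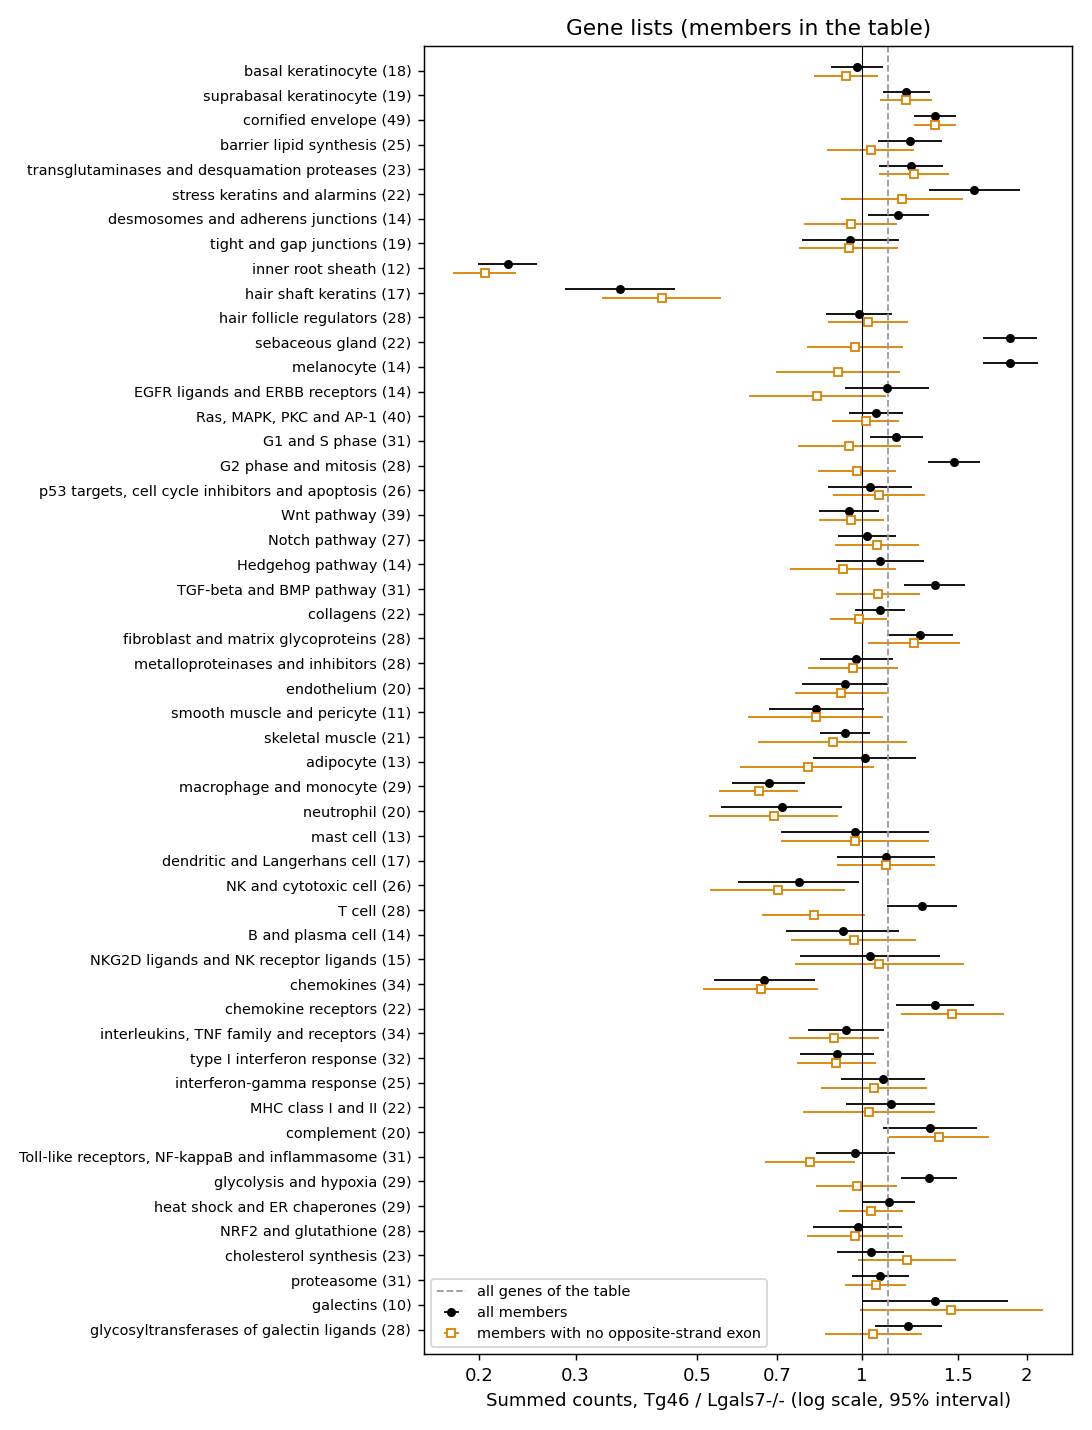
Ratio of summed counts, Tg46 over Lgals7-/-, on a log axis for each gene list, with the number of its genes in the table in brackets and the 95% counting interval as the bar. Filled points are all members and open squares the members with no opposite-strand exon; the inner root sheath (0.23) and hair shaft keratins (0.36) lie farthest below 1, and the sebaceous, melanocyte, mitosis and T cell sums drop to below 1 among the open squares.

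Outside the lists, the genes with the clearest separation and no opposite-strand exon mostly had few or 0 counts in 1 library. Olfr510, an olfactory receptor gene (chromosome 7, 108666418 to 108670259), had 2 counts in Lgals7-/-, 61 in Tg46 and 11 in wild-type, 24.2-fold higher in Tg46 (7.95 to 253). Adcy8, a calcium-stimulated adenylate cyclase, had 10, 93 and 7 counts in the same order, 8.75-fold higher (4.75 to 19.7). Iapp, the islet amyloid peptide gene (0 and 19 counts in Lgals7-/- and Tg46), Magel2, an imprinted gene (0 and 18), Actl7a (0 and 15) and Fam110a (0 and 14) were at least 6.22-fold, 5.89-fold, 4.91-fold and 4.58-fold higher. Glud1, the mitochondrial glutamate dehydrogenase (3 and 32), Asb14 (10 and 62), Ddias (1 and 20), Cope, a coatomer subunit (1 and 18), and Sprr2j-ps, a pseudogene of the small proline-rich family (1 and 19), followed with Sprr2k.

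Downward, after Tchh, the clearest were Rdh16f2, a retinol dehydrogenase family gene (15 and 0), and Lyz1. Htatsf1, Platr4 and Zfp715 had 13 counts in Lgals7-/- and 0 in Tg46, at least 4.41-fold lower, and Dalir, Ift43, an intraflagellar transport gene, Nup35, a nuclear pore gene, and Vmn1r158, a vomeronasal receptor gene, had 12 and 0, at least 4.07-fold lower. Mpst, a sulfurtransferase gene, had 18 and 1, and Krt35 completed this set. These zero counts were not shared by wild-type in every case, since Nup35 had 18 counts there and Ift43 10. Of all calls, 63 had 0 counts in the lower library, 31 of them higher and 32 lower in Tg46.

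Among genes with an opposite-strand exon the highest were LTO1 (110 and 560 counts, 4.98-fold, 4.07 to 6.19, overlapping Ccnd1), Atp5j (3 and 39, overlapping Gabpa), Foxf1 (0 and 17, overlapping Gm27530), Eme1 (29 and 171, overlapping Lrrc59) and Abi1 (13 and 90, overlapping Pdss1). The lowest were Cdc20b (16 and 0, overlapping 4930563N14Rik), Krt32, Zim3 (17 and 1, overlapping Usp29), Tmed10 (29 and 4, overlapping Gm47819) and Tpgs2 (331 and 105, overlapping AW554918). The sources used here do not give whether strand was used in counting, so for such genes the counts cannot be assigned to either transcript.

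The direction of calls moved with abundance. Of genes with 10 to 19 counts over both libraries, 12.2% were called higher and 13.6% lower, and of the 142 genes with at least 320 counts, 35.9% and 1.41%. Those 142 held 51 called higher and 2 called lower, and 119 had a ratio above 1. Most of them, 111 (78.2%), had an opposite-strand exon overlap, as did 44 of the 51 called higher. The highest counts were at 1810014B01Rik, which overlaps the chaperone gene Hsp90b1, with 715 in Lgals7-/-, 2487 in Tg46 and 456 in wild-type, 3.41-fold higher in Tg46 than in Lgals7-/- (3.14 to 3.72). Hsp90b1 itself had 50 and 81 counts in Lgals7-/- and Tg46, a ratio of 1.59 (1.10 to 2.31), and was not called.

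At other pairs, too, the gene called higher had more counts than the gene across, whose own call varied. Acat3 (285 and 898 counts in Lgals7-/- and Tg46) overlaps Tcp1, a chaperonin subunit gene that was itself called higher (3 and 12). Snx22 (279 and 799) overlaps Ppib, a cyclophilin gene below the filter (2 and 4). Ccdc85b (90 and 370) overlaps Fosl1, an AP-1 gene that was not called (12 and 13). For 40 of the 51 the gene across was in the table. It was called higher at 8, lower at 0, not called at 26 and not tested at 6, and its ratio was above 1 at 32 of the 40. It had fewer counts than its partner in both libraries at 36. With at least 320 counts, 39.6% of the 111 genes with an opposite-strand exon were called higher, against 16% of the 25 without one. Genes with such an exon held 40.9% of the counts in Lgals7-/-, 46.6% in Tg46 and 40.03% in wild-type. Over the whole range, 11.8% of the 4069 tested genes with such an exon were called higher and 6% lower, and of the 8047 without one 7.23% were called higher and 9.1% lower. The part of the overlap in these calls was not tested.

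**Figure D4:**
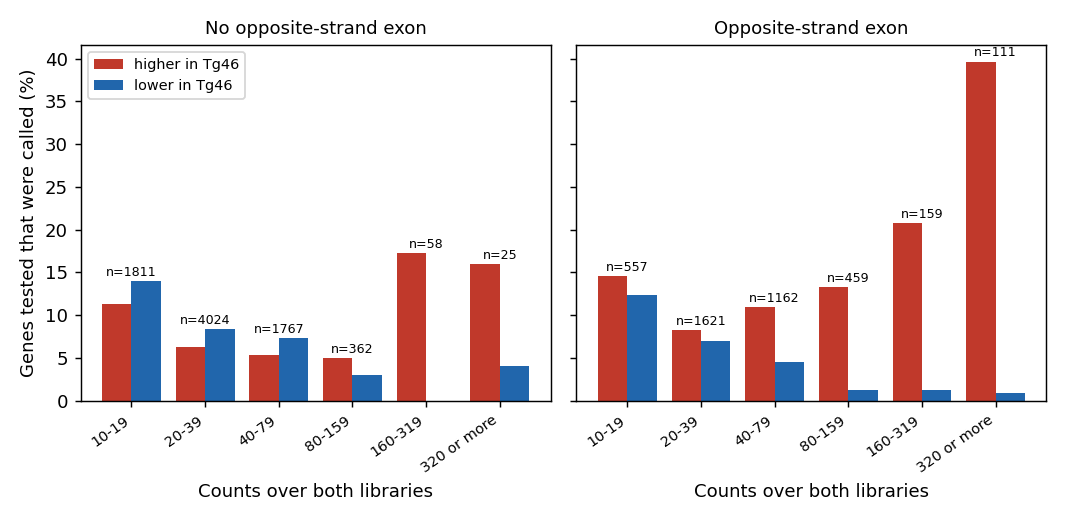
Percentage of tested genes called higher (red) or lower (blue) in Tg46 by total counts over both libraries, for genes without (left) and with (right) an opposite-strand exon overlap; n is the number of tested genes in each class. The share called higher climbs to 39.6% of 111 genes in the right panel and is 16% of 25 in the left.

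Genes of chromosome 7, where Lgals7 lies, were higher in Tg46 as a group. Of 1015 tested, 140 (13.8%) were called higher and 46 (4.53%) lower, and the median log2 ratio was 0.31. On the 18 other autosomes and X the share called higher ran from 5.97% to 10.4%, the share called lower from 6.16% to 10.6% and the median from -0.14 (X) to 0.07 (chromosome 17). Chromosome 7 held 7.45% of all counts in Lgals7-/-, 8.56% in Tg46 and 7.07% in wild-type. Relative to all other chromosomes its sum was 1.16-fold higher in Tg46 than in Lgals7-/- (1.14 to 1.18), where the other chromosomes ran from 0.92 (chromosome 18) to 1.03 (chromosome 12). Against wild-type the Tg46 library stood at 1.23 (1.20 to 1.26) and the Lgals7-/- library at 1.06 (1.03 to 1.08), where the other chromosomes ran from 0.86 to 1.13 and from 0.88 to 1.11.

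The higher level was spread along the chromosome. In windows of 10 Mb with at least 20 tested genes, the median log2 ratio was above 0 in 14 of 14 windows of chromosome 7, from 0.01 to 0.46, and in 80 of 197 windows elsewhere (40.6%). It held over genes with no opposite-strand exon, at 1.22 relative to such genes elsewhere (1.19 to 1.24), and without the 20 most abundant genes of the chromosome, at 1.11 (1.09 to 1.13). Among genes with at least 160 counts the relative sum was 1.06 (1.01 to 1.10), while the median log2 ratio was 0.52 on chromosome 7 and 0.59 elsewhere. Named members with no overlap were Calm3, a calmodulin gene (5 and 29 counts in Lgals7-/- and Tg46), Shank2, a scaffold gene (17 and 49), Usp35, a deubiquitinase gene (9 and 32), and Arhgap33 (11 and 36), all called higher. Igf1r (57 and 62) and Hras (12 and 10) were not called. Without chromosome 7, 939 genes (8.38%) were called higher and 941 (8.395%) lower. DNA copy number was not measured.

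**Figure D5:**
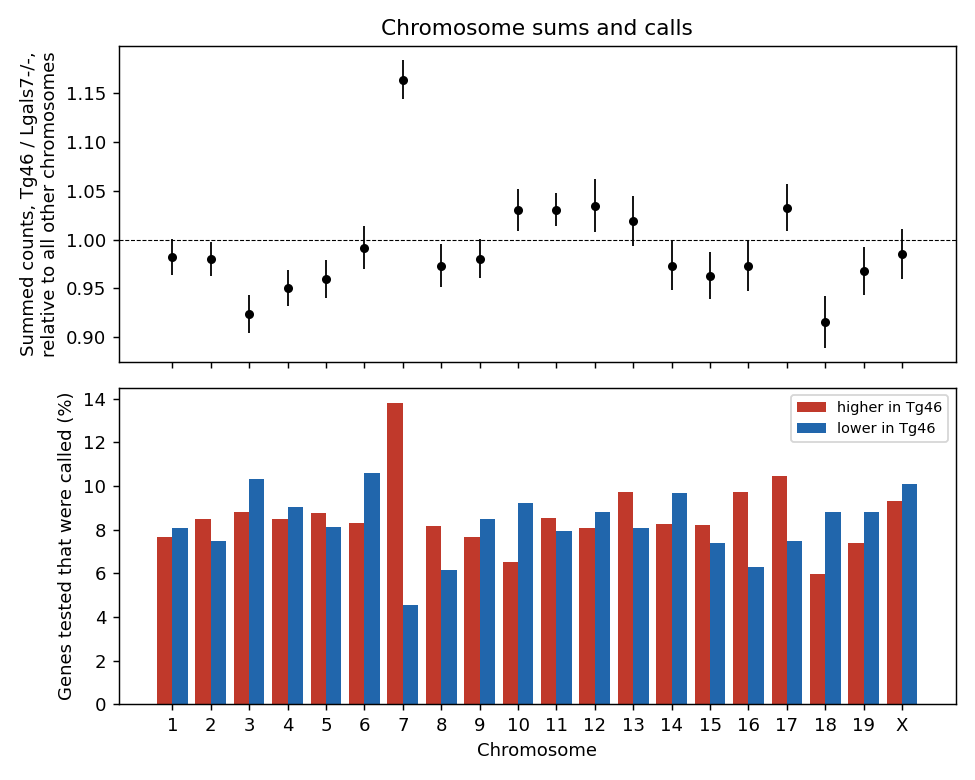
Upper panel, summed counts of each chromosome in Tg46 over Lgals7-/- relative to all other chromosomes, with the 95% counting interval; lower panel, percentage of its tested genes called higher (red) or lower (blue). Chromosome 7 stands at 1.16 and 13.8% called higher, above every other chromosome in both panels.

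The counts of the wild-type library entered no call. Of the 1079 genes called higher, its scaled level was between Lgals7-/- and Tg46 for 50.7%, below both for 30.9% and above both for 18.4%. Of the 987 called lower it was between for 46.9%, below both for 32.5% and above both for 20.6%. Over all tested genes it was between for 23.1%, but a called gene has a wider gap to fall into, so these shares are descriptions. It lay nearer to Lgals7-/- than to Tg46 for 52.9% of genes called higher and 46.3% of those called lower. Summed, the genes called higher stood at 66462 CPM in Lgals7-/-, 184612 in Tg46 and 102286 in wild-type, and those called lower at 70202, 21802 and 42626 CPM. The wild-type sum lay between the 2 other libraries in both sets. The genes were chosen for a gap between those 2 libraries, which favours such a place, so it does not order the libraries.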

How the data were processed

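The deposited table gives raw read counts for each Entrez gene, made by the authors from 1 RNA library per genotype of 3 pooled papillomas. Per the labels' protocols, an Illumina kit for RNA was used. The build is mm10 per the submitters' processing notes, and the sources used here do not give the aligner, counting tool, annotation or use of strand. Symbols came from RefSeq (23968 of 24028 identifiers matched) and exon overlaps from GENCODE models of GRCm38 (23724 matched).

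Counts were scaled by TMM factors over 3 libraries (edgeR 4.0.16 in R 4.3.3), which were 1.004 for wild-type, 1.05 for Lgals7-/- and 0.945 for Tg46. Ratios with 0.5 counts added, exact Clopper-Pearson 95% intervals and list sums were computed in Python 3.11.15 with scipy 1.17.1, and were tested on simulated data. Calls needed 2-fold and an interval excluding 1, among genes with at least 10 counts in 1 of the 2 libraries. A gene could pass that filter through the library where it was high, which favours a call. Bounds written "at least" set the empty library to 3 counts. List and chromosome sums take every member and no filter.

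The genes, the 55 lists (1237 of 1256 genes in the table) and the comparisons were chosen with earlier results of these data known. Named genes were Lgals7, the 12 clearest called genes in each direction with no opposite-strand exon and the 5 with one, ranked by the interval bound nearest 1 and without Gm or Rik symbols, and, in each list described, the 3 members with the most counts and up to 4 called members. Other members, Hsp90b1 and the other opposite-strand pairs, and the chromosome 7 genes were named after their values were seen. A few genes that this rule takes are not reported here.

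Alternatives were DESeq2 1.42.0 size factors, upper-quartile factors, total counts, TMM over the compared pair, other filters and thresholds, 5 added counts, thinning, and sums without overlapping or top members. Sums without chromosome 7, Lyz1 and Lyz2, its 20 most abundant genes or its receptor genes were added after seeing the data.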

Additional observations from a re-analysis of the deposited data

How the results depend on the processing

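No paired analysis was possible because there is a single library on each side. Raising the filter to 20 counts tests fewer genes and left 636 genes called higher and 446 lower, and raising it to 100 counts left 104 and 4. The 2-fold threshold alone gave 1688 and 1539, a 4-fold threshold 313 and 296, and intervals wholly beyond 2-fold 147 and 86. Genes with no opposite-strand exon gave 582 higher and 732 lower. Of 175 recomputed ratios of named genes, 175 were graded as unchanged, and of 467 recomputed list values, 395 were. Where both intervals held 1, that grade did not require the direction to hold. For example, without the top member the EGFR sum went from 1.11 to 0.935 and the Hedgehog sum from 1.08 to 0.939. For medians of list members, and for named genes with more counts added, the grade only required a value inside the original interval. With the median of the tested members in place of the sum, the ratio was 1.12 for the cornified envelope, 0.504 for the inner root sheath, 0.276 for hair shaft keratins, 0.475 for chemokines and 1.24 for chromosome 7. Among sums whose interval left out 1, it turned below 1 for transglutaminases and desquamation proteases (0.982), G1 and S phase (0.919), TGF-beta and BMP (0.908) and chaperones (0.975). Among the same sums, over members with no opposite-strand exon the value turned below 1 for desmosomes (0.955), sebaceous gland (0.972), melanocytes (0.905), G1 and S phase (0.949), mitosis (0.979), T cells (0.816) and glycolysis (0.979), and without its top member for G1 and S phase (0.933). The cause was not tested, beyond fewer genes entering each sum. Depth limits all of this: over 10 to 19 counts an interval spans severalfold, and variation between tumours was not measured.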

Other observations

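Chemosensory receptor genes, the olfactory, vomeronasal and taste receptors of the nose and tongue, were slightly lower in Tg46 in sum. Only 82 of the 1477 reached 10 counts in at least 1 of the 2 libraries and were tested. A gene could pass through the library where it was high, which favours a call, so the shares called among them are descriptions. Of the 82, 8 (9.76%) were called higher and 26 (31.7%) lower, against 8.83% and 8.07% of all tested genes, and their median log2 ratio was -1.03. The 1477 genes summed to 4496 counts in Lgals7-/- and 4267 in Tg46, a ratio of 0.93 (0.89 to 0.97). Per kilobase of exon they stood at 2.53 CPM in Lgals7-/-, 2.36 in Tg46 and 3.23 in wild-type. Their level moved opposite to the share of counts at genes with an opposite-strand exon, which was highest in Tg46, and the part of either in the other was not tested.

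Long noncoding RNA genes were called more often than protein-coding ones in both directions. Of 687 tested, 99 (14.4%) were called higher and 75 (10.9%) lower, against 8.43% and 7.86% of 11404 protein-coding genes. With tested genes split into 5 classes of equal size by exon length, the shortest class had 13.7% called higher and 10.9% lower, and the longest 4.99% and 6.03%. Tsix, the antisense partner of the X inactivation transcript Xist, had 1185 counts in Lgals7-/- and 1084 in Tg46, and Xist 156 and 97. Their exons overlap on opposite strands, so these counts cannot be assigned to either transcript. The 8 Y-linked genes listed had 0 counts in every library.

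Neighbours across a gene called higher shared its call more often than they went against it. Each gene called higher was entered once with each tested gene across it, so a pair with both called higher was entered from each side. Of these 301 entries, the gene across was called higher in 59 (19.6%), lower in 12 (3.99%) and neither in 230. Of all tested genes with an opposite-strand exon, 11.8% and 6% were called higher and lower. Of 89 entries made in the same way for genes called lower, the gene across was called lower in 6 (6.74%), higher in 11 (12.4%) and neither in 72.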
